A study of Mus musculus with 4 samples.

Results

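Dmkn and Trem3 are 2 of the 27998 genes measured in mouse bone marrow carrying the Idh1-R132H mutation or wild-type Idh1. They were taken up because earlier results of these same data showed both lower in Idh1-R132H myeloid progenitors, so their genotype difference in progenitors is given here as a description, with no test. Dmkn encodes dermokine, a secreted protein best known from the upper layers of skin. Trem3 encodes a mouse receptor of the TREM family (triggering receptors expressed on myeloid cells), which signals through the adaptor DAP12, the product of Tyrobp. In humans TREM3 is a pseudogene.

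There were 4 libraries, 2 labelled Idh1-R132H and 2 labelled Idh1-WT, each from 1 mouse. The R132H change gives cytosolic isocitrate dehydrogenase the ability to make 2-hydroxyglutarate. An EYFP reporter and, in the mutant group, 1 heterozygous Idh1-R132H allele were recombined by 5 days of tamoxifen. EYFP-positive lineage-negative cells sorted 2 weeks later were transplanted into irradiated mice with no supporting marrow, and the marrow of these chimeras was taken after 16 weeks. Each library pools 3 EYFP-positive sorts of 4000 cells from 1 mouse. These were donor-derived marrow as a whole (CD45.1-positive), the stem cell-rich LSK fraction (Lin-, Sca1+, cKit+) and the progenitor-rich LK fraction (Lin-, cKit+). Shares of cell types therefore follow the sort. The recombinase and its promoter, the ages and the number of donors are not given in the sources used here. The 2 mice of a genotype may therefore share donor cells, in which case the spread between their libraries is partly technical. Donor and genotype cannot be told apart, and all p-values refer to these samples.

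The libraries held 40364701 to 56353466 UMIs (unique molecular identifiers, each standing for 1 captured transcript) and 3505 to 4426 cells with a median of 7228 to 9636 UMIs. Idh1-R132H 1 and Idh1-WT 1 shared 345 cell barcodes, where about 23.8 would be shared at random, and 327 of these held at least 10 times more UMIs in Idh1-R132H 1. Those barcodes were removed from Idh1-WT 1, and with them kept the Dmkn difference given below for neutrophil-committed cells was -1.11 on the log2 scale, against -1.13 without them. Every library held cells with UMIs of Xist and cells with UMIs of Y-linked genes, in unequal shares: Xist-carrying cells were 46.8% and 35.3% of the Idh1-R132H libraries and 65.2% and 45.1% of the Idh1-WT libraries.

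Granulocyte-monocyte progenitors are the marrow cells from which neutrophils and monocytes arise. On the way to neutrophils they make primary granule proteins such as neutrophil elastase, encoded by Elane, and later secondary granule proteins such as lactoferrin, encoded by Ltf. On the way to monocytes and dendritic cells they depend on the transcription factor IRF8, and monocytic cells also express F13a1, the coagulation factor XIII A subunit. Each cell was assigned to 1 of 14 groups by its best-scoring marker set. The 3 myeloid progenitor groups were granulocyte-monocyte progenitor-like cells (577 and 694 cells in Idh1-R132H 1 and 2, against 614 and 423 in Idh1-WT 1 and 2), neutrophil-committed progenitor-like cells (196 and 258 in Idh1-R132H, 208 and 203 in Idh1-WT) and monocyte-committed progenitor-like cells (382 and 403 in Idh1-R132H, 392 and 292 in Idh1-WT). Elane, Ctsg and Gfi1 were among the 10 genes that led the neutrophil-committed group, and F13a1, Irf8 and Ly6c2 among those of the monocyte-committed group. Granulocyte-monocyte progenitor-like cells were led by Ctsg, Mpo and Elane and shared 3 of their 10 leading genes with the neutrophil-committed marker set. Neither Dmkn nor Trem3 was a marker used in the assignment.

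Dmkn lies on the plus strand of mouse chromosome 7 and Trem3 on the plus strand of chromosome 17, at chr7:30763756-30781063 and chr17:48247777-48258841 (GRCm38, GENCODE vM21). RefSeq places Dmkn starts at 3 positions, the first 2 of them 2 bases apart, and the windows from 250 bases before to 50 bases after the far upstream and the downstream start (GRCm38.p6, plus strand) are shown because the gene has separate starts that reads from the 3′ end cannot tell apart. Capitals mark matches of the C/EBP motif TTNNGCAA, the motif of the family to which the neutrophil regulators C/EBPα and C/EBPε belong.
Dmkn upstream start, chr7:30763506-30763805: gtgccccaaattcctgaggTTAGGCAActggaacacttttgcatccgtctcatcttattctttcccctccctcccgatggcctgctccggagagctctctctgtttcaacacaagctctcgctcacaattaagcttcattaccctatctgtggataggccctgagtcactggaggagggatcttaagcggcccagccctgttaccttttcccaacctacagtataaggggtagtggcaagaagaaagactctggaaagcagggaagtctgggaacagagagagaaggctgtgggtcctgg
Dmkn downstream start, chr7:30776155-30776454: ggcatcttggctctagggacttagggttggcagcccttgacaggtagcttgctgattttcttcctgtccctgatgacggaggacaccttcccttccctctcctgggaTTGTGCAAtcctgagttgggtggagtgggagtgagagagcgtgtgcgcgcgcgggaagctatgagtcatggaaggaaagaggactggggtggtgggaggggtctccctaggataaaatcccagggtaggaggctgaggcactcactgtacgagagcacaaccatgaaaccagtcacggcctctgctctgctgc
Each window held 1 match, 231 bases before the upstream start and 143 bases before the downstream start. On either strand, the motif occurred in 10.8% of all 32544 promoter windows of the same length. Neither window held the ETS motif AGGAAGT (9.27% of windows) or the RUNX motif TGTGGT (16.7%) on either strand, and no motif match overlapped another. Trem3 had no entry in the promoter table.

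Dmkn was a gene of the 3 progenitor groups and hardly of any other. Those groups made up 30.1% and 30.6% of the cells of the Idh1-R132H libraries and 29.1% and 26.2% of those of the Idh1-WT libraries, and they held 93.7% and 93.9% of all Dmkn UMIs in Idh1-R132H and 93.7% and 94.6% in Idh1-WT. Neutrophil precursor- and neutrophil-like cells held between 0.663% and 1.29%. The share held by the 3 groups together was thus close in the 4 libraries, but its split was not: granulocyte-monocyte progenitor-like cells held 42.2% and 50.6% in Idh1-R132H and 38.8% and 32.7% in Idh1-WT.

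Among the progenitors the neutrophil-committed group stood first for Dmkn. Its level there was 88.4 and 83.3 CPM (UMIs of the gene per 1000000 UMIs of the cell group) in Idh1-R132H 1 and 2, against 201 and 178 in Idh1-WT 1 and 2, from between 351 and 893 Dmkn UMIs per library. In monocyte-committed cells it was 44.4 and 35.1 in Idh1-R132H and 95.2 and 96.1 in Idh1-WT. In granulocyte-monocyte progenitor-like cells it was 44.5 and 52.1 in Idh1-R132H and 82.4 and 72.0 in Idh1-WT. The neutrophil-committed group was the highest in every library, but the order of the other 2 turned: monocyte-committed cells were at or below granulocyte-monocyte progenitor-like cells in both Idh1-R132H libraries and above them in both Idh1-WT libraries.

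Outside the progenitors Dmkn was low. The next group was basophil and mast progenitor-like cells, with 10.8 and 11.2 CPM in Idh1-R132H and 23.3 and 12.3 in Idh1-WT. Of the 37 Dmkn UMIs of this group in Idh1-WT 1, 12 lay in 1 cell. In stem and multipotent progenitor-like cells, which stand before the myeloid progenitors, Dmkn had 3.27 and 2.23 CPM in Idh1-R132H and 5.26 and 3.17 in Idh1-WT. All 11 remaining groups had overlapping ranges from one rank to the next, between 3.12 and 14.4 CPM on average over the 4 libraries. In mature B-like cells the Idh1-WT 2 value of 31.4 CPM rested on 12 UMIs, 8 of them in 1 cell.

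**Figure D1:**
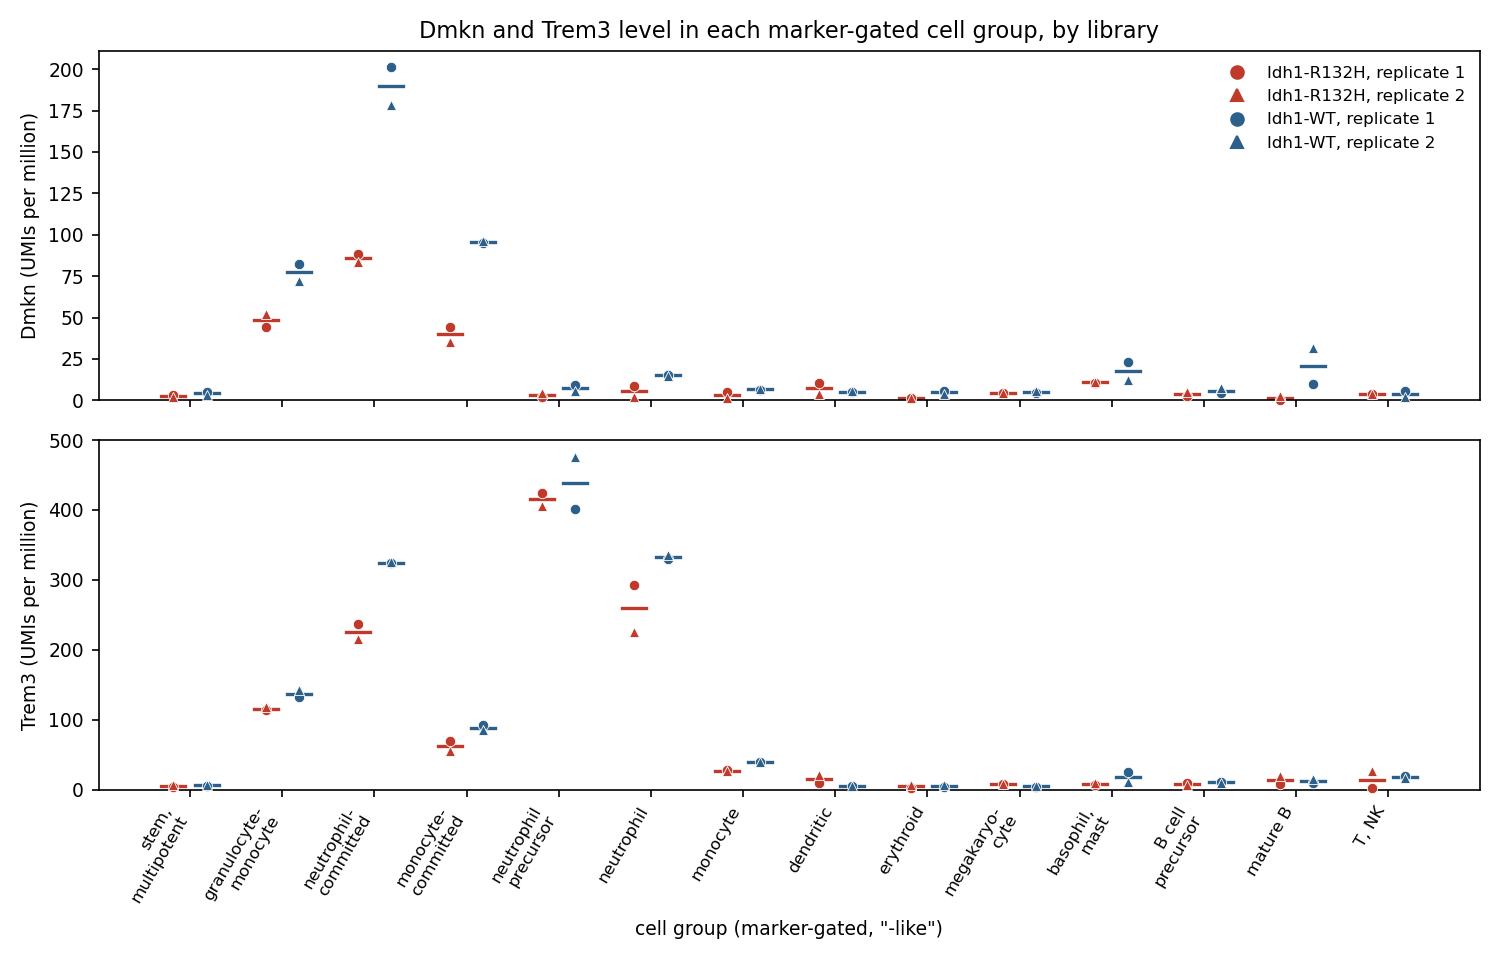
CPM of Dmkn (top) and Trem3 (bottom) in each of the 14 marker-assigned cell groups. Points are libraries, circles replicate 1 and triangles replicate 2, and bars are means of 2 libraries; Dmkn is confined to a high level in the 3 progenitor groups, with 201 and 178 in Idh1-WT neutrophil-committed cells, and Trem3 stays high in neutrophil precursor- and neutrophil-like cells.

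Trem3 was found in the same progenitors and, unlike Dmkn, also in later cells of the neutrophil line. The progenitor groups held 73.0% and 65.4% of its UMIs in Idh1-R132H and 71.0% and 70.7% in Idh1-WT, and neutrophil precursor- and neutrophil-like cells held 24.1% and 30.5% in Idh1-R132H and 25.8% and 26.2% in Idh1-WT. The progenitor share was not corrected for the greater depth of those cells. Over all cells Trem3 had 88.0 and 93.5 CPM in Idh1-R132H and 109 and 118 in Idh1-WT, above its level in monocyte-committed progenitor-like cells of each library. Its level in neutrophil precursor-like cells, which stood highest of the 14 groups, was 424 and 406 CPM in Idh1-R132H and 401 and 476 in Idh1-WT. Mature neutrophil-like cells had 292 and 226 in Idh1-R132H and 330.0 and 336 in Idh1-WT, a range that overlapped that of neutrophil-committed progenitor-like cells.

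Along the progenitors Trem3 was ordered by commitment to neutrophils. Neutrophil-committed cells had 237 and 215 CPM in Idh1-R132H and 323 and 325 in Idh1-WT. Granulocyte-monocyte progenitor-like cells had 113 and 118 in Idh1-R132H and 131.7 and 143 in Idh1-WT. Monocyte-committed cells had 68.8 and 54.8 in Idh1-R132H and 92.0 and 85.5 in Idh1-WT, and these 3 ranges did not overlap one another. Monocyte-like cells carried less still, at 28.1 and 26.2 in Idh1-R132H and 39.6 and 39.7 in Idh1-WT, and every other group averaged at most 16.1 CPM.

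The difference between the 2 branches was tested, since it was not the contrast that chose the genes. Counts of neutrophil-committed and monocyte-committed cells were compared within libraries with edgeR's quasi-likelihood test and Benjamini-Hochberg adjustment, the library as a block. Dmkn was higher in neutrophil-committed cells by 1.15 on the log2 scale (SE 0.05, 95% interval 1.04 to 1.26, adjusted p = 3.9e-23) and in all 4 libraries. Trem3 was higher by 1.98 (SE 0.04, 95% interval 1.89 to 2.07, adjusted p = 6.4e-36), also in all 4. These branches are wide apart, and 44.2% of the 10040 genes tested passed at a false discovery rate of 0.05, so passing is common here and the size of the difference is the information. Very small p-values rest on the variance that edgeR pools over genes, with a median of 41.5 prior degrees of freedom. Genes higher and lower in neutrophil-committed cells were 22.0% and 22.3% of those tested.

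Genes of the TREM receptor pathway divided between the branches. Of 20 listed genes, of which Trem3 itself was left out of the counts, 13 others had enough counts to test in each branch. Of these 4 were higher and 4 lower in neutrophil-committed cells, against 22.0% and 22.3% of all genes. The median difference of the 13 was 0.02 on the log2 scale, against 0.00 over all genes. Hcst, which encodes the alternative adaptor DAP10, was higher by 0.98 (SE 0.05, adjusted p = 2.3e-20, edgeR). Tyrobp, the DAP12 gene, was lower, at -1.29 (SE 0.03, adjusted p = 8.3e-37), so Trem3 and its adaptor gene differed in opposite directions between these groups.

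Another 3 genes of the list had enough counts in 1 branch only, so their difference is given as levels. Trem1, the amplifier of neutrophil and monocyte inflammation next to Trem3, had 4.70 CPM in Idh1-R132H and 6.78 in Idh1-WT neutrophil-committed cells, and 1.25 in Idh1-R132H and 1.99 in Idh1-WT monocyte-committed cells. Trem2, a receptor of macrophages, had 1.29 CPM in Idh1-R132H and 0.694 in Idh1-WT neutrophil-committed cells, and 28.3 in Idh1-R132H and 26.8 in Idh1-WT monocyte-committed cells. Treml4 was the third. Of 14 other DAP12-coupled and paired myeloid receptor genes 8 had enough counts in each branch, among them the assignment markers Clec12a and Clec4d. Of the 8, 7 were higher in neutrophil-committed cells, against 22.0% of all genes, and these included both markers. An example is Clec4a2 (1.37, SE 0.10, adjusted p = 9.0e-05, edgeR). Cd300lb alone was lower (-2.48, SE 0.19, adjusted p = 1.8e-15, edgeR), against 22.3% of all genes. Sirpb1a, Sirpb1b and Sirpb1c passed the count filter through monocyte-committed cells alone.

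The genotype difference of both genes in the progenitors had the same sign in each group. In neutrophil-committed cells Dmkn averaged 85.9 ± 3.62 CPM in Idh1-R132H and 190 ± 16.0 in Idh1-WT (SD, n = 2 each), a fitted log2 difference of -1.13 (SE 0.08). In monocyte-committed cells the means were 39.8 ± 6.57 in Idh1-R132H and 95.6 ± 0.685 in Idh1-WT, a difference of -1.25 (SE 0.10). In granulocyte-monocyte progenitor-like cells they were 48.3 ± 5.35 in Idh1-R132H and 77.2 ± 7.37 in Idh1-WT, a difference of -0.66 (SE 0.09). The groups of libraries did not overlap in any of the 3.

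Trem3 differed less. In neutrophil-committed cells it averaged 226 ± 15.5 CPM in Idh1-R132H and 324 ± 1.08 in Idh1-WT, a log2 difference of -0.51 (SE 0.06). In monocyte-committed cells the means were 61.8 ± 9.88 in Idh1-R132H and 88.8 ± 4.62 in Idh1-WT, a difference of -0.51 (SE 0.10). In granulocyte-monocyte progenitor-like cells they were 116 ± 3.62 in Idh1-R132H and 137 ± 7.87 in Idh1-WT, a difference of -0.22 (SE 0.05). Both Idh1-R132H libraries lay below both Idh1-WT libraries for Trem3 in the 3 groups as well. This held for 20.9% of the 9362 genes tested in neutrophil-committed, 19.7% of 10017 in monocyte-committed and 23.3% of 10953 in granulocyte-monocyte progenitor-like cells, and nothing is read from it, because the genes were chosen on this contrast.

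**Figure D2:**
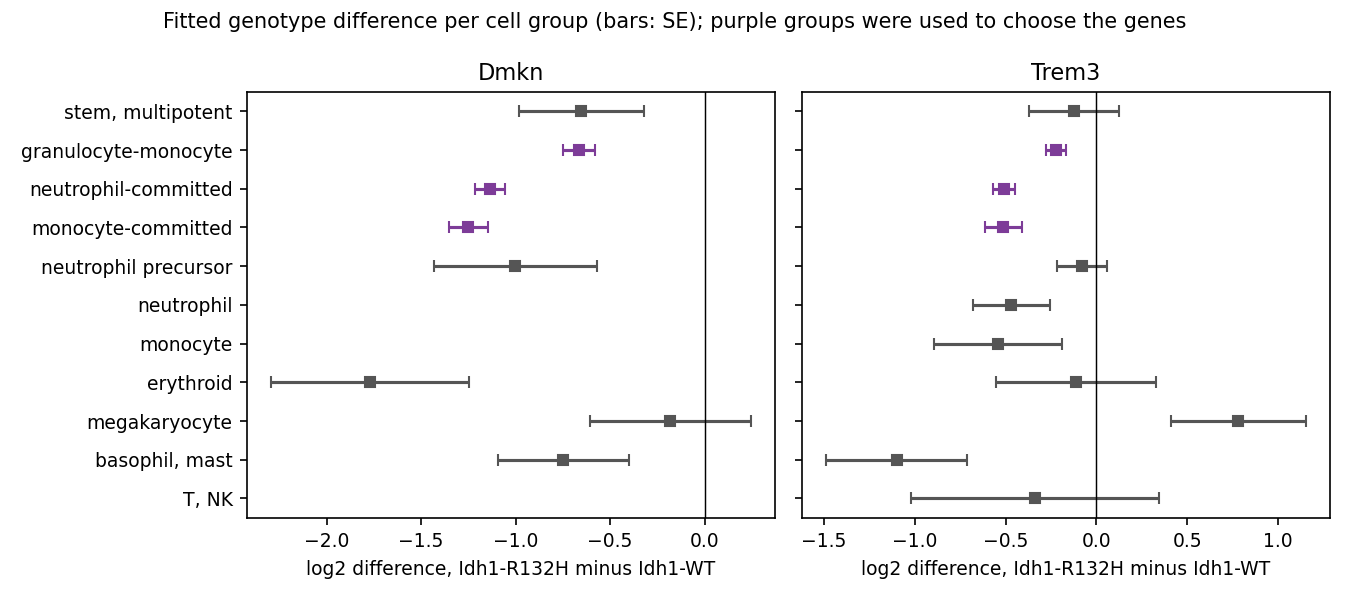
Fitted log2 difference of Dmkn (left) and Trem3 (right), Idh1-R132H minus Idh1-WT, with SE, in each cell group where the gene had enough counts. Purple marks the 3 progenitor groups in which the genes were chosen; Dmkn lies between -0.66 and -1.25 there and Trem3 between -0.22 and -0.51.

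Whether the genotype difference itself differed between the branches was tested with edgeR's interaction of genotype and branch, in which 0.0697% of 10040 genes passed. For Dmkn the difference of differences was 0.11 on the log2 scale (SE 0.11, 95% interval -0.12 to 0.34, adjusted p = 0.946), and for Trem3 it was 0.0029 (SE 0.09, 95% interval -0.17 to 0.18, adjusted p = 0.999). Neither passed, and the intervals leave room for differences of up to about those sizes. On simulated data the same test recovered 25.3% of genes with an added log2 difference of 0.5 and 69.1% at 1. Those genes were drawn at random from all that passed the count filter, with a common dispersion and no branch difference. The rates therefore do not describe Dmkn or Trem3, for which the SE and intervals are the guide.

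Markers of the groups differed between the genotypes in some groups. In neutrophil-committed cells Elane averaged 19835 ± 1035 CPM in Idh1-R132H and 22100 ± 116 in Idh1-WT, and Irf8 averaged 49.7 ± 13.7 in Idh1-R132H and 31.4 ± 4.37 in Idh1-WT (SD, n = 2 each), with no overlap between genotypes, as for 39.5% of all genes tested there. In granulocyte-monocyte progenitor-like cells Elane averaged 11257 ± 37.1 in Idh1-R132H and 10877 ± 448 in Idh1-WT. In monocyte-committed cells Elane averaged 6210 ± 501 in Idh1-R132H and 6231 ± 661 in Idh1-WT, Irf8 averaged 522 ± 30.5 in Idh1-R132H and 534 ± 11.8 in Idh1-WT, and F13a1 averaged 344 ± 7.12 in Idh1-R132H and 355 ± 11.6 in Idh1-WT. The markers were therefore close between genotypes in the monocyte-committed group and apart in the neutrophil-committed group, where the Irf8 ratio was larger than that of Trem3. What part these marker differences have in the Dmkn and Trem3 values was not tested, and the levels were next compared between cells of like Elane content.

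For this the progenitor-like cells were thinned to 10000 UMIs each, which kept 976 and 1104 cells of Idh1-R132H 1 and 2 and 1038 and 745 of Idh1-WT 1 and 2 and left out 179 and 251 of Idh1-R132H and 176 and 173 of Idh1-WT as too shallow. Cells of 1 library are not replicates, so what follows is a description over libraries. With 2 libraries against 2, an exact permutation test cannot go below p = 0.333.

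Both genes followed Elane. In cells with fewer than 30 Elane UMIs, Dmkn had 14.8 and 12.6 CPM in Idh1-R132H and 15.7 and 14.5 in Idh1-WT. In cells with 30 to 99 it had 40.0 and 42.7 in Idh1-R132H and 82.9 and 87.7 in Idh1-WT. The genotypes overlapped where Elane was low and stood about as far apart as in the whole groups from there on. With 100 to fewer than 200 Elane UMIs Dmkn had 61.0 and 60.5 in Idh1-R132H and 126 and 96.9 in Idh1-WT, and with 200 or more it had 94.97 and 107 in Idh1-R132H and 222 and 209 in Idh1-WT. Idh1-R132H cells richest in Elane thus had about the Dmkn level of Idh1-WT cells one class lower in Elane.

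Trem3 climbed with Elane in the same way but with a smaller gap. Below 30 Elane UMIs it had 24.5 and 21.7 CPM in Idh1-R132H and 27.8 and 27.7 in Idh1-WT. At 100 to fewer than 200 it had 146 and 149 in Idh1-R132H and 179 and 169 in Idh1-WT, and at 200 or more 269 and 276 in Idh1-R132H and 365 and 385 in Idh1-WT. The widest gap in CPM was in the cells with the most Elane. Within neutrophil-committed cells alone, those with 200 or more Elane UMIs had Dmkn at 114 and 108 in Idh1-R132H and 247 and 239 in Idh1-WT, and Trem3 at 285 and 292 in Idh1-R132H and 401 and 414 in Idh1-WT. Neutrophil-committed cells with 100 to fewer than 200 Elane UMIs had Dmkn at 61.7 and 58.8 in Idh1-R132H and 123 and 94.8 in Idh1-WT, and Trem3 at 198 and 192 in Idh1-R132H and 274 and 224 in Idh1-WT, a narrower gap for both. With 30 to 99 Elane UMIs, in 16 cells or fewer per library, Dmkn overlapped at 33.3 and 75.0 in Idh1-R132H and 83.3 and 10.0 in Idh1-WT.

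**Figure D3:**
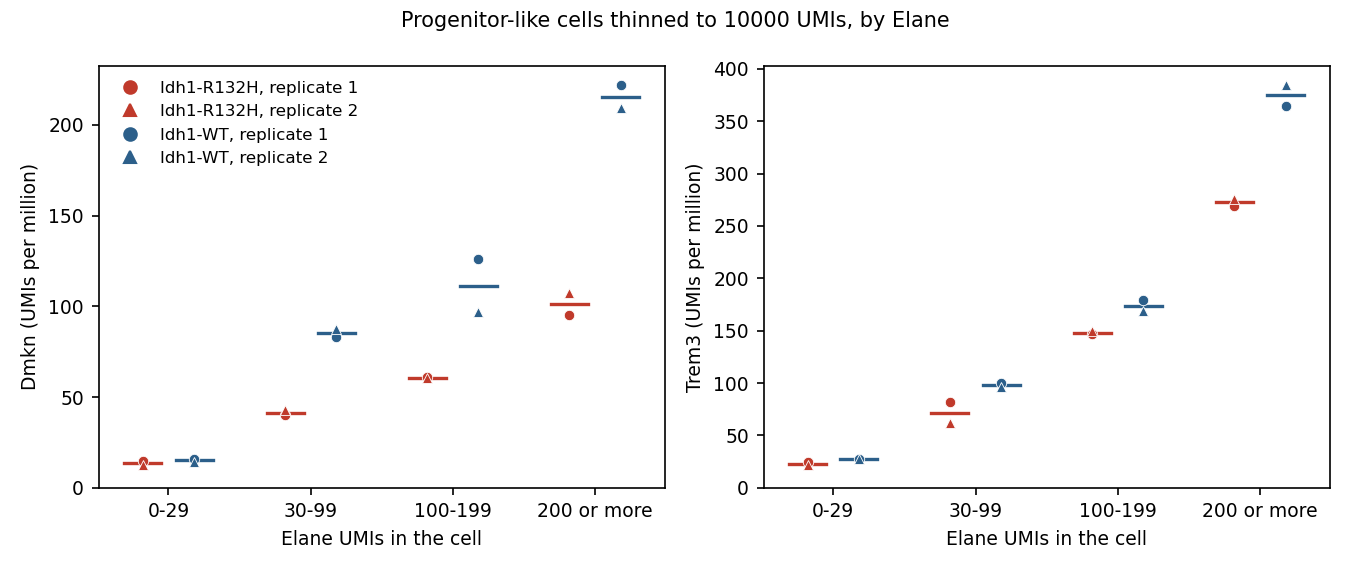
CPM of Dmkn (left) and Trem3 (right) in progenitor-like cells thinned to 10000 UMIs, by the number of Elane UMIs in the cell. Points are libraries and bars are means of 2. Dmkn reaches 94.97 and 107 in Idh1-R132H and 222 and 209 in Idh1-WT cells with 200 or more Elane UMIs. Below 30 the genotypes overlap for Dmkn and not for Trem3.

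Per cell, rank correlations with Elane described the same relation. Spearman's rho of Dmkn with Elane was 0.33 and 0.38 in Idh1-R132H (976 and 1104 cells) and 0.50 and 0.44 in Idh1-WT (1038 and 745 cells), and that of Trem3 with Elane was 0.56 and 0.59 in Idh1-R132H and 0.62 and 0.68 in Idh1-WT. Cells of a library share its free RNA and, after thinning, their depth. Cells carrying a Dmkn UMI had a median of 149.5 and 159 Elane UMIs in Idh1-R132H and 146 and 156 in Idh1-WT, and cells without one had 78 and 76 in Idh1-R132H and 46.5 and 57 in Idh1-WT. The Dmkn-carrying cells of both genotypes therefore had overlapping Elane medians, and the cells without Dmkn held more Elane in Idh1-R132H.

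Irf8 and F13a1 separated the 2 genes. Trem3 was lower with more Irf8: cells without an Irf8 UMI had 170.2 and 183 CPM in Idh1-R132H and 217 and 252 in Idh1-WT, and cells with 6 or more had 65.0 and 63.4 in Idh1-R132H and 97.9 and 89.4 in Idh1-WT. Dmkn in Idh1-WT did not follow that order. It had 120.3 and 124 CPM in Idh1-WT cells without Irf8, 80.9 and 58.2 with 1 or 2 Irf8 UMIs, 82.5 and 94.2 with 3 to 5, and 123 and 111 with 6 or more. In Idh1-R132H the same 4 classes had 62.8 and 67.2, 41.2 and 42.9, 37.2 and 46.0, and 48.0 and 34.6, so the cells with the most Irf8 showed the widest Dmkn gap of the 4 classes between the genotypes.

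Taking Irf8 and F13a1 together made the pattern plainer. Progenitor-like cells with F13a1 but no Irf8 had the most Dmkn, 72.6 and 85.9 CPM in Idh1-R132H and 207 and 179 in Idh1-WT. Cells with both had 43.3 and 44.6 in Idh1-R132H and 111 and 104 in Idh1-WT. Cells with Irf8 but no F13a1 had 37.1 and 37.7 in Idh1-R132H and 49.7 and 51.6 in Idh1-WT, the narrowest gap of the 4 classes. The presence of a F13a1 UMI thus went with the higher Dmkn level in Idh1-WT whether or not Irf8 was present, and Irf8-positive Idh1-R132H cells differed less in Dmkn by F13a1. By F13a1 count the relation was not steady. Dmkn had 81.1 and 92.7 CPM in Idh1-WT cells without F13a1, and 164 and 80.0 with 6 or more F13a1 UMIs (53 and 30 cells). Spearman's rho of Dmkn with F13a1 was weak, at -0.03 and -0.07 in Idh1-R132H and 0.14 and 0.08 in Idh1-WT.

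Cells with neither gene had Dmkn at 60.5 and 64.0 CPM in Idh1-R132H and 96.4 and 114 in Idh1-WT. For Trem3, cells with F13a1 alone had 207 and 197 in Idh1-R132H and 296 and 272 in Idh1-WT, and cells with both had 81.5 and 70.2 in Idh1-R132H and 105 and 99.6 in Idh1-WT. Cells with Irf8 alone had 93.4 and 74.9 in Idh1-R132H and 101 and 94.1 in Idh1-WT. Trem3 therefore stood at about the same level in both Irf8-positive classes, unlike Dmkn in Idh1-WT.

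**Figure D4:**
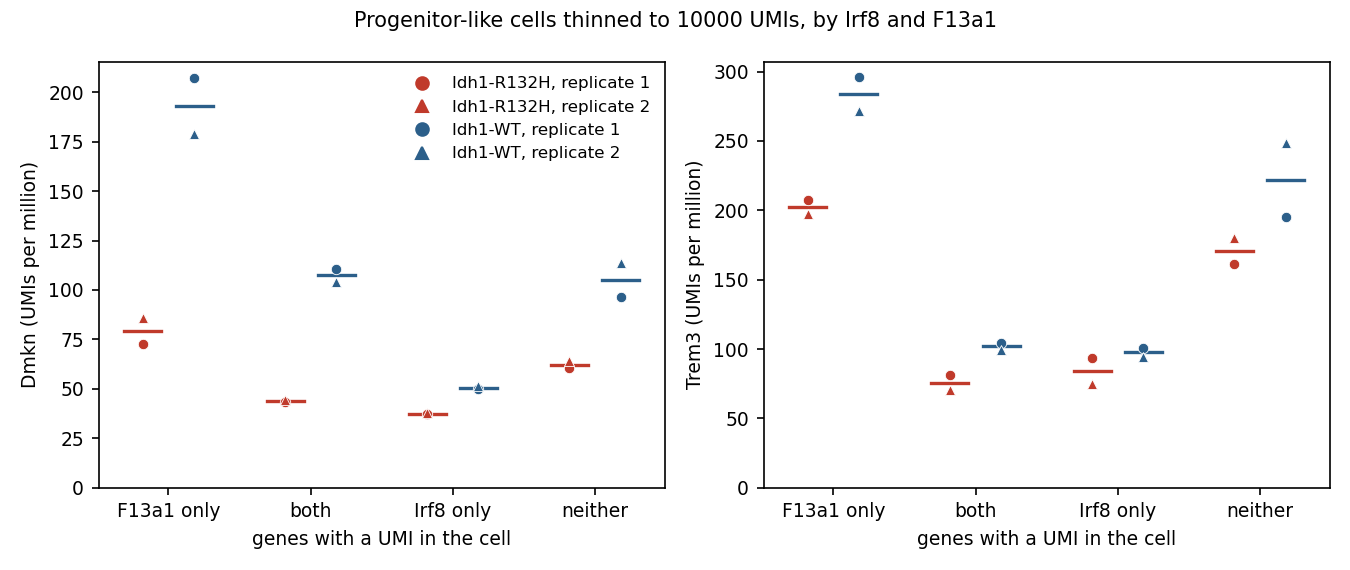
CPM of Dmkn (left) and Trem3 (right) in progenitor-like cells thinned to 10000 UMIs, by whether the cell held a UMI of F13a1, of both F13a1 and Irf8, of Irf8, or of neither. Points are libraries and bars are means of 2; Dmkn in cells with both genes was 43.3 and 44.6 in Idh1-R132H and 111 and 104 in Idh1-WT, and with Irf8 alone 37.1 and 37.7 in Idh1-R132H and 49.7 and 51.6 in Idh1-WT.

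In Idh1-WT, cells with both Irf8 and F13a1 also had more Dmkn than other cells of like Elane content. Among cells with 30 to 99 Elane UMIs, those with both Irf8 and F13a1 had Dmkn at 45.0 and 45.8 CPM in Idh1-R132H and 101 and 117 in Idh1-WT. The other cells of that Elane class had 34.2 and 38.7 in Idh1-R132H and 48.3 and 43.7 in Idh1-WT. Among cells with 100 to fewer than 200 Elane UMIs the values were 62.7 and 59.0 in Idh1-R132H and 157 and 135 in Idh1-WT with both genes, and 60 and 61.1 in Idh1-R132H and 107 and 77.9 in Idh1-WT otherwise. These classes were not tested, and those with 200 or more Elane UMIs and both genes held 23 cells or fewer per library.

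Dmkn and Trem3 were often found in the same cells. A Trem3 UMI was present in 71.1% and 68.6% of Dmkn-carrying cells in Idh1-R132H and 74.3% and 77.4% in Idh1-WT, and in 48.8% and 47.3% of the other progenitor-like cells in Idh1-R132H and 46.0% and 53.3% in Idh1-WT. At like Elane content the shares lay closer: the gap was below the library's overall gap in 15 of 16 combinations of Elane class and library, and below 0 in 4 of them. Below 30 Elane UMIs they were 40.0% and 33.3% with Dmkn and 16.6% and 17.8% without it in Idh1-R132H, and 32.3% and 31.8% with Dmkn and 20.98% and 22.2% without it in Idh1-WT. Among cells with 30 to 99 Elane UMIs they were 52.1% and 44.7% with Dmkn and 47.7% and 45.3% without it in Idh1-R132H, and 61.5% and 53.2% with Dmkn and 53.3% and 58.0% without it in Idh1-WT. At 100 to fewer than 200 Elane UMIs they were 79.0% and 67.3% with Dmkn and 65.0% and 70.0% without it in Idh1-R132H, and 74.4% and 80.9% with Dmkn and 70.1% and 74.3% without it in Idh1-WT. At 200 or more they were 83.7% and 92.5% with Dmkn and 90.8% and 82.9% without it in Idh1-R132H, and 93.8% and 96.9% with Dmkn and 90.3% and 87.5% without it in Idh1-WT.

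The share of cells in which a gene was seen depends on depth and free RNA. After thinning to 1000 UMIs a Dmkn UMI was present in 6.12% and 6.02% of neutrophil-committed cells in Idh1-R132H (Wilson 95% intervals 3.54% to 10.4% and 3.68% to 9.70%) and in 15.1% and 11.6% in Idh1-WT (10.9% to 20.7% and 7.83% to 16.7%). In mature B-like cells, which should lack it, the thinned share was 0 of 118 and 0 of 114 in Idh1-R132H, which allow up to 2.54% and 2.63%, and 0.893% and 2.04% in Idh1-WT. Before thinning the neutrophil-committed shares were 68.4% and 60.1% in Idh1-R132H and 80.8% and 70.4% in Idh1-WT at a median of 18206.5 to 21862 UMIs per cell, and the mature B-like shares were at most 3.27% at 1690.5 to 1831 UMIs. Intervals and limits cover counting error only.

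Dmkn was nearly gone one step after the neutrophil-committed stage, whereas Trem3 persisted. In cells thinned to 2000 UMIs, neutrophil-committed cells had Trem3 at 217 and 185 CPM in Idh1-R132H and 322 and 354 in Idh1-WT. Precursor-like cells with 1 to 9 Ltf UMIs, early in secondary granule formation, had 317 and 328 in Idh1-R132H and 437 and 483 in Idh1-WT. Precursor-like cells with 10 or more Ltf UMIs had 498 and 484 in Idh1-R132H and 491 and 553 in Idh1-WT. Neutrophil-like cells deep enough for this had 417 and 339 in Idh1-R132H (66 and 59 cells) and 435 and 384 in Idh1-WT (77 and 56 cells). The genotypes were thus apart in the first 2 stages and overlapped in the later ones. The stage with 1 to 9 Ltf UMIs rested on 33 and 61 Trem3 UMIs in Idh1-R132H and 97 and 58 in Idh1-WT. Whether the genotype difference changed between stages was not tested. Dmkn counts in the same precursor cells were between 0 and 4 UMIs per library and stage, too few to order.

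**Figure D5:**
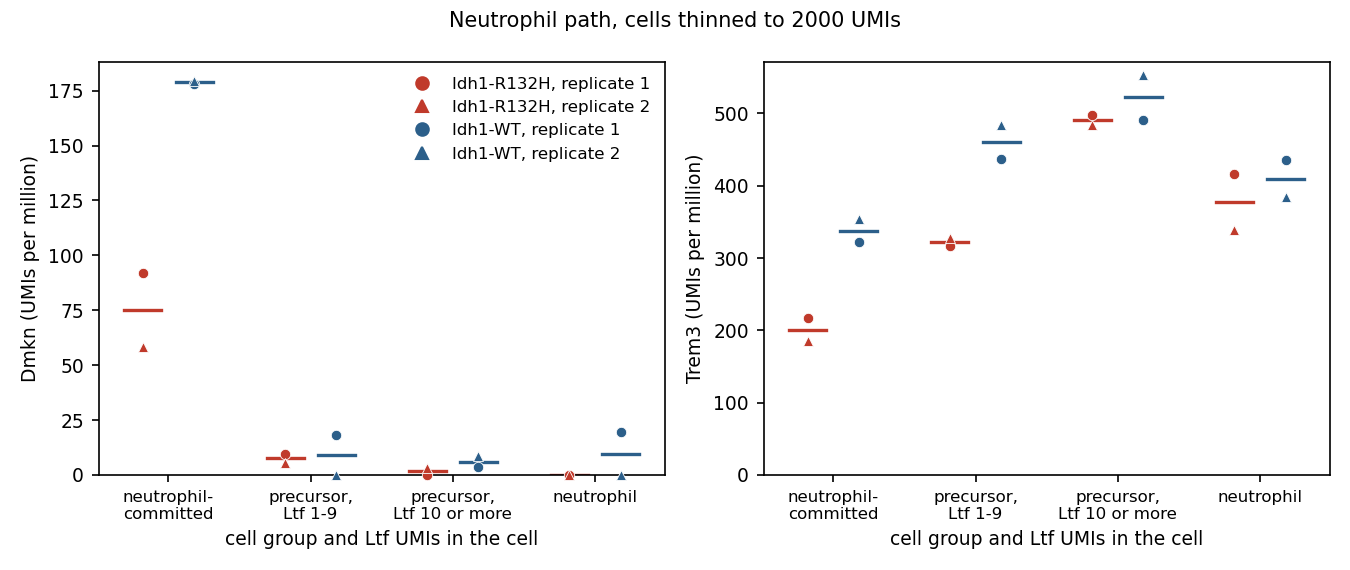
CPM of Dmkn (left) and Trem3 (right) along the neutrophil path in cells thinned to 2000 UMIs. Points are libraries and bars are means of 2; Trem3 in precursor-like cells with 1 to 9 Ltf UMIs was 317 and 328 in Idh1-R132H and 437 and 483 in Idh1-WT and overlapped between the genotypes at 10 or more, while Dmkn was at 0 to 4 UMIs per library there.

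Cell groups on which the genes had not been chosen allowed a test of genotype, on other cells of the same mice. Trem3 in neutrophil precursor-like cells, its highest group, averaged 415 ± 12.98 CPM in Idh1-R132H and 439 ± 53.6 in Idh1-WT (SD, n = 2 each), with a log2 difference of -0.08 (SE 0.14, 95% interval -0.36 to 0.20, edgeR adjusted p = 1.00). The 2 genotypes overlapped, and without Idh1-WT 2 the difference was 0.11. Whether it differed from the -0.51 of neutrophil-committed cells was not tested. In neutrophil-like cells the means were 259 ± 46.9 in Idh1-R132H and 333 ± 4.48 in Idh1-WT, a difference of -0.47 (SE 0.21, 95% interval -0.93 to -0.01, edgeR adjusted p = 0.642), with both Idh1-R132H libraries below both Idh1-WT libraries, as for 13.7% of all genes there. Without Idh1-R132H 1 it was -0.75 and without Idh1-R132H 2 -0.25. Among all genes 0.0916% passed in precursor-like cells and 0 of 3698 in neutrophil-like cells by edgeR, where 286 had an unadjusted p under 0.05, DESeq2 called 1, and edgeR called 90 without Idh1-WT 1 and 7 without Idh1-WT 2.

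Outside the progenitors the Dmkn differences rested on few counts. In neutrophil precursor-like cells it had 4 and 14 UMIs in Idh1-R132H and 27 and 11 in Idh1-WT, which is 2.28 and 4.68 CPM in Idh1-R132H and 9.14 and 5.54 in Idh1-WT. Its log2 difference there was -1.002 (SE 0.43, edgeR adjusted p = 1.00), with -1.68 without Idh1-R132H 2 and -0.61 without Idh1-WT 1. In erythroid progenitor-like cells it had 8 UMIs in both Idh1-R132H libraries together and 36 in both Idh1-WT libraries together, a difference of -1.77 (SE 0.52, edgeR adjusted p = 1.00). In stem and multipotent progenitor-like cells the difference was -0.65 (SE 0.33, edgeR adjusted p = 0.882). It was -0.41 without Idh1-R132H 2, -0.20 without Idh1-WT 1, -0.38 in Xist-carrying cells alone and -1.52 with free RNA subtracted.

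With the main settings neither gene passed the test in any group outside the progenitors in which it was tested. Under 1 alternative setting Trem3 passed in basophil and mast progenitor-like cells. The share of all genes that passed was 0.0262% in stem and multipotent progenitor-, 0.24% in monocyte-, 0.0438% in erythroid progenitor-, 0.177% in megakaryocyte progenitor- and 0.0497% in basophil and mast progenitor-like cells, and 0 of 5172 genes passed in T and NK-like cells, where 228 had an unadjusted p under 0.05 DESeq2 called 0 and edgeR called 12 to 44 with any 1 library left out. Of the groups not yet described, Trem3 in monocyte-like cells had a log2 difference of -0.54 (SE 0.35, edgeR adjusted p = 0.992). In basophil and mast progenitor-like cells it was -1.10 (SE 0.39, edgeR adjusted p = 0.606), but -1.51 without Idh1-WT 2 and -0.29 without Idh1-WT 1. Of the 39 Trem3 UMIs of that group in Idh1-WT 1, 8 lay in 1 cell. In megakaryocyte progenitor-like cells the Trem3 difference was 0.78 (SE 0.37, edgeR adjusted p = 0.778), the only tested group in which the Idh1-R132H level was higher. Free RNA carried both genes as well: in near-empty barcodes Dmkn was at 35.9 and 24.9 CPM in Idh1-R132H and 43.0 and 49.5 in Idh1-WT, and Trem3 at 104 and 96.9 in Idh1-R132H and 95.4 and 126 in Idh1-WT. Its amount was estimated from S100a8 and S100a9 UMIs in mature B-like cells. It came to 599 and 250 UMIs per cell in Idh1-R132H 1 and 2 and 246 and 184 in Idh1-WT 1 and 2, so it was unequal between libraries. The Dmkn levels in free RNA were above the average of each of the 11 other groups, and the part of free RNA in the small values was not tested beyond its subtraction as an alternative setting.

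The progenitor gap in Dmkn was also measured within classes of sex-linked transcripts and of cycling genes. In Xist-carrying progenitor-like cells Dmkn had 52.3 and 60.9 CPM in Idh1-R132H and 102 and 101 in Idh1-WT, and in cells with Y-linked UMIs 54.2 and 46.5 in Idh1-R132H and 123 and 119 in Idh1-WT. Trem3 in Xist-carrying cells had 125 and 139 in Idh1-R132H and 149.6 and 170.1 in Idh1-WT. Among progenitor-like cells with 10 or more UMIs of 10 cycling genes Dmkn had 50.9 and 45.9 in Idh1-R132H and 90.0 and 96.8 in Idh1-WT, and among those with at most 2 it had 47.1 and 52.3 in Idh1-R132H and 88.4 and 82.3 in Idh1-WT.

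The genotype test was read for the other TREM and DAP12-coupled receptor genes. Of the listed TREM receptor and signalling genes other than Trem3 none was called in neutrophil-committed (14 tested, median log2 difference -0.02), monocyte-committed (16 tested, median 0.04) or granulocyte-monocyte progenitor-like cells (16 tested, median 0.07), against medians of 0.01, 0.01 and 0.01 over all genes. The call rate over all genes in these groups was 0.748%, 0.0699% and 0.557%, so no call among so few genes is near that background. Of the 14 other DAP12-coupled and paired receptor genes 8 were tested in neutrophil-committed, 11 in monocyte-committed and 8 in granulocyte-monocyte progenitor-like cells. Clec4a2, an inhibitory lectin receptor, was higher in granulocyte-monocyte progenitor-like cells (0.47, SE 0.09, adjusted p = 0.00855, edgeR). Clec12a, another inhibitory lectin and a marker used in assigning cells, was lower in neutrophil-committed cells (-0.25, SE 0.05, adjusted p = 0.00423), and Sirpb1c was lower in monocyte-like cells (-0.68, SE 0.16, adjusted p = 0.0377). The median difference of these receptor genes was -0.31 in neutrophil-like cells (11 tested, 9 negative) and 0.73 in megakaryocyte progenitor-like cells (4 tested, all positive), with none called by edgeR in either.

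Skin genes that accompany Dmkn in the epidermis were mostly missing. Of 12 listed cornified envelope and keratin genes only 2 had enough counts to test in any progenitor group, Sbsn and Krt10, and neither was called for genotype. Krt10 was lower in neutrophil-committed than in monocyte-committed cells (-0.91, SE 0.18, adjusted p = 3.1e-05, edgeR), and Sbsn did not pass there. Sbsn, which encodes suprabasin and is the gene just before Dmkn, had 6.19 CPM in Idh1-R132H and 5.82 in Idh1-WT neutrophil-committed cells, with a log2 difference of 0.11 (SE 0.30, edgeR adjusted p = 0.959). Krtdap, just after Dmkn, was at 0 UMIs in all 14 groups. The 2 skin genes beside Dmkn were thus low or at 0 in progenitors that carried it.

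Of the 5 genes on each side of each member, the granulocyte-monocyte progenitor-like test held 7, of which 1 passed, against 0.557% of all genes, while 0 of 6 passed in neutrophil-committed and 0 of 8 in monocyte-committed cells. Tmem147, the third gene before Dmkn, had 186 CPM in Idh1-R132H and 214 in Idh1-WT neutrophil-committed cells, a log2 difference of -0.19 (SE 0.07, edgeR adjusted p = 0.227). Ffar2, a short-chain fatty acid receptor 2 genes after Dmkn, differed the other way and was higher in granulocyte-monocyte progenitor-like cells, with 22.6 CPM in Idh1-R132H and 16.1 in Idh1-WT (0.49, SE 0.11, adjusted p = 0.0460, edgeR). Beside Trem3, Trem1 had a log2 difference of -0.51 (SE 0.30, edgeR adjusted p = 0.640) and Treml2 of -0.03 (SE 0.16, edgeR adjusted p = 0.973) in neutrophil-committed cells. None of the tested genes within 5 of Trem3 was called in a progenitor group.

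The genes most like each member were found by Pearson's r of log2(CPM + 1) over the 14 cell groups, among 6957 genes that reached 20 CPM in some group. Markers among these were left out of the ranking. For Dmkn these were Alas1, the first enzyme of haem synthesis (r = 0.93), Trim45 (0.90), Surf4, an endoplasmic reticulum cargo receptor (0.90), Pgam1, a glycolytic enzyme (0.89), and Mgl2, a galactose-binding lectin receptor (0.88). For Trem3 they were Sgms2, a sphingomyelin synthase (0.97), Dgat2, a triglyceride synthesis enzyme (0.95), Ccdc125 (0.94), Clec5a, a DAP12-coupled lectin receptor (0.94), and Cldn15, a claudin (0.93). The points share libraries and cell assignment. Dmkn and Trem3 themselves had r = 0.59, with neutrophil precursor- and neutrophil-like cells high for Trem3 alone.

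Of these 10 genes 3 passed the genotype test in neutrophil-committed cells by edgeR, against 0.748% of all genes. A negative difference there was seen for 7 of the 10, where the median over all genes was 0.01, and nothing is read from that count. Mgl2 was lower by a log2 difference of -0.60 (SE 0.10, adjusted p = 0.00013), Trim45 by -0.50 (SE 0.13, adjusted p = 0.0431) and Cldn15 by -0.35 (SE 0.08, adjusted p = 0.0106). None of the 10 passed in monocyte-committed or granulocyte-monocyte progenitor-like cells. In monocyte-committed cells the differences of these 3 genes were still negative and no smaller. They were -0.74 (SE 0.17) for Mgl2, -0.61 (SE 0.19) for Trim45 and -0.54 (SE 0.12) for Cldn15. Alas1, the closest to Dmkn, differed by -0.23 in neutrophil-committed cells (SE 0.24, edgeR adjusted p = 0.867), and Sgms2, the closest to Trem3, by -0.48 (SE 0.14, edgeR adjusted p = 0.109). Dgat2 differed by -0.64 (SE 0.19, edgeR adjusted p = 0.1295).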

How the data were processed

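The authors deposited raw UMI counts for every barcode, near-empty ones included, from 10x 3′ v2 libraries. The submitters' processing notes name Cell Ranger 4.0.0, Seurat and GRCm38. A barcode was kept with 500 or more UMIs, 200 or more genes and no more than 10% mitochondrial UMIs. Another 343 barcodes were dropped because a different library held them with 10 times the UMIs or more, leaving 15943 cells. Each cell joined the group whose 10 markers had the highest mean z-score (log counts per 10000 UMIs, 14 marker sets). No doublet caller was run.

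Counts were summed per library and group of at least 20 cells, filtered with filterByExpr, scaled by TMM and tested with edgeR 4.0.16 (robust quasi-likelihood, Benjamini-Hochberg over all genes, 0.05) in R 4.3.3. CPM is a gene's count per 1000000 counts of its group. On simulated data the test in neutrophil-committed cells recovered 44.9% of log2 differences of 0.5 and 78.8% of differences of 1, over 9346 genes. Free RNA came from barcodes with at most 50 UMIs. GENCODE vM21 held 98.7% of the features. Named genes are the members, Elane, Irf8 and F13a1, the 5 genes most like each member, called list members and detected neighbours. Members and lists were chosen with earlier results of these data known.

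The alternatives were DESeq2 1.42.0, RLE factors, library totals, no filter, 300 or 1000 UMIs, 5% mitochondrial UMIs, free RNA subtracted, Xist-carrying cells, cells whose best marker score led by over 0.1, a replicate block and leaving out libraries. Keeping the 343 barcodes, dropping the 5% of cells with the most UMIs and a crossed block were chosen after seeing the data. Replicate numbers come from the titles.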

Additional observations from a re-analysis of the deposited data

Results flagged for a closer look

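Dmkn in monocyte-committed against granulocyte-monocyte progenitor-like cells went opposite ways in the 2 genotypes. The log2 ratio of its CPM was -0.0017 and -0.567 in Idh1-R132H 1 and 2, and 0.21 and 0.42 in Idh1-WT 1 and 2. The difference was not tested, and the Idh1-R132H 1 value is near 0.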

How the results depend on the processing

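Dmkn and Trem3 stayed negative in the 3 progenitor groups under all alternatives, Dmkn between -0.48 and -1.52 and Trem3 between -0.11 and -0.69. Trem3 in granulocyte-monocyte progenitor-like cells was -0.11 in Xist-carrying cells alone, and Dmkn in monocyte-committed cells was -1.52 without the cells with the most UMIs. The branch difference kept its call throughout, between 1.04 and 1.30 for Dmkn and between 1.87 and 2.21 for Trem3. Trem3 in basophil and mast progenitor-like cells lay between -1.92 and -0.29 over 16 alternatives and was called in 1 of them. Values without 1 library assume that the lone library varies like the other genotype.

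Other values near 0 changed sign. Trem3 was 0.04 (0.0382) in neutrophil precursor-like cells after subtraction of free RNA and 0.14 in erythroid progenitor-like cells with a clear lead of the best marker set. Its genotype by branch difference was -0.0192 with a clear lead, -0.0202 without the cells with the most UMIs, -0.0038 with RLE factors, -0.0067 with no filter, -0.0055 with DESeq2 and -0.0020 with the replicate block. With 1 library left out it lay between -0.0803 and 0.0921, that of Dmkn between -0.0038 (without Idh1-R132H 2) and 0.23. Likewise Trem3 lay between -0.46 and 0.16 in stem and multipotent progenitor-like (positive without Idh1-R132H 1), between -0.25 and 0.11 in neutrophil precursor-like (positive without Idh1-WT 2), between -0.99 and 0.38 in erythroid progenitor-like and between -3.07 and 0.50 in T and NK-like cells (both positive without Idh1-R132H 1), and Dmkn between -0.43 and 0.0274 in megakaryocyte progenitor-like cells (positive without Idh1-WT 2). The causes were not tested.

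Counts of genes called depended on settings. In granulocyte-monocyte progenitor-like cells 61 were called, 24 in Xist-carrying cells alone, 97 without the cells with the most UMIs, 168 with no filter, 35 with DESeq2 and 96 with the replicate block. In neutrophil-committed cells 70 were called, 32 in Xist-carrying cells alone, 40 with a clear lead, 124 with no filter and 15 with DESeq2. In monocyte-committed cells 7 were called, 11 with a minimum of 300 UMIs, 13 in Xist-carrying cells alone, 12 with a clear lead, 54 with no filter, 4 with DESeq2 and 32 with the replicate block. Between the branches 4438 were called, 2562 with DESeq2. In the genotype by branch test 7 were called, 12 with 300 UMIs, 13 with at most 5% mitochondrial UMIs, 4 with free RNA subtracted, 4 in Xist-carrying cells alone, 12 with a clear lead, 4 without the cells with the most UMIs, 18 with no filter, 1 with DESeq2 and 23 with the replicate block. With 1 library left out the counts ran between 8 (without Idh1-R132H 2) and 182 (without Idh1-WT 1) in granulocyte-monocyte progenitor-like, between 23 (without Idh1-R132H 2) and 155 (without Idh1-R132H 1) in neutrophil-committed and between 3 (without Idh1-R132H 2) and 240 (without Idh1-WT 1) in monocyte-committed cells, and between 6 and 33 in the genotype by branch test.

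Replicate numbers are shared only as numbers: deviations of same-numbered libraries correlated at -0.022, 0.013, 0.026 and -0.111 in granulocyte-monocyte progenitor-, neutrophil-committed, monocyte-committed and neutrophil precursor-like cells. With the replicate block Dmkn was -0.66, -1.13 and -1.25 and Trem3 -0.23, -0.51 and -0.51 in the 3 progenitor groups in that order, and the block changed no call of either gene. A crossed block in neutrophil precursor-like cells, chosen after seeing the data, called 29 genes in place of 7.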
